A study of Mus musculus with 18 samples.

Results

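Paneth cells were followed here among the lineage-traced progeny of Lgr5+ stem cells in the mouse ileum. The cells came from the 4 lineage-traced single-cell RNA-seq libraries, made with a droplet assay that marks the RNA of one droplet by its barcode and counts molecules by unique molecular identifiers (UMIs). A barcode had to hold 2000 to 18000 UMIs, 200 to 4000 genes and under 5% mitochondrial UMIs. Of these barcodes, a Paneth cell was one in which the alpha-defensin genes (symbols starting with Defa) together took at least 30% of the UMIs and Lyz1 had at least 5 UMIs. This rule kept 1568 of 10088 barcodes, and 34443 barcodes of all 8 libraries of the series lay within the same limits. The rule reads the defensin genes and Lyz1, so the levels of these genes are given as a description without a test.

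Paneth cells sit at the base of the small intestinal crypt, between the Lgr5+ stem cells. They fill large apical granules with antimicrobial proteins, chiefly alpha-defensins (cryptdins) and lysozyme, and release them into the crypt lumen. Their membrane and secreted ligands, such as Wnt3, Egf and the Notch ligands Dll1 and Dll4, are known to feed the neighbouring stem cells. SETDB1 is a histone methyltransferase that deposits the repressive mark H3K9me3, and the design asks what its loss in Lgr5+ cells does to their progeny.

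The WT mice were Lgr5-GFP-CreERT2/nTnG and the Setdb1-KO mice Lgr5-GFP-CreERT2/Setdb1lox/lox/nTnG, with 2 libraries per genotype. All mice, WT included, carried the tamoxifen-inducible Cre knocked into Lgr5 and were injected with 70 mg/kg tamoxifen. They were 60 to 65 days old, on the C57Bl6 background, and GFP+ ileal crypt cells were sorted 5 days after tamoxifen. The nTnG reporter turns on nuclear GFP in cells in which Cre has acted and in all their descendants, so the sort takes progeny as well as stem cells. The Lgr5 knock-in is known to be expressed in a mosaic of crypts, and the deletion removes 1 exon of Setdb1. A further 4 libraries, used only for comparison, were sorted for Lgr5-driven GFP from mice without the reporter (the Lgr5+ sort, Lgr5-GFP-CreERT2 and Lgr5-GFP-CreERT2/Setdb1lox/lox, 2 libraries each, same treatment). The labels call all these cells stem cells, whereas the lineage-traced Paneth cell barcodes held Lgr5 at 8.74, 7.46, 5.62 and 3.22 CPM (UMIs of a gene scaled to an equal total of UMIs per library, in the order WT 1, WT 2, Setdb1-KO 1, Setdb1-KO 2). The other barcodes of these libraries held it at 11.1, 6.58, 24.1 and 13.98 CPM, and Paneth cells of the Lgr5+ sort at 7.88, 16.4, 0 and 8.04 CPM.

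The lineage-traced libraries held 16881518 to 43046925 UMIs each. Paneth cells contributed 7782105 and 2815358 UMIs in the WT libraries, against 711580 and 930757 in the Setdb1-KO libraries, so the Setdb1-KO values rest on far fewer molecules. A Paneth cell held a median of 8426 and 4994 UMIs in WT and of 4144 and 5817 in Setdb1-KO. No barcode was shared between the Paneth cells of any pair of lineage-traced libraries.

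The second WT library stood apart from the other 3. RNA free in the suspension, read from barcodes of 1 to 100 UMIs, was 37.2% and 39.4% defensin in the WT libraries and 16.8% in each Setdb1-KO library. In the second WT library 173 of the 422 barcodes that met the rule (41.0%) had the composition of this free RNA, and the other libraries had 0 such barcodes among 900, 123 and 123. These 173 barcodes held a median of 39.2% defensin UMIs, 4.70% mitochondrial UMIs and 0.276% Lyz1 UMIs, beside 39.4%, 4.79% and 0.261% in the free RNA itself. The remaining 249 barcodes of that library held a median of 64.1% defensin UMIs and 0.474% mitochondrial UMIs. The results on cell shares, on gene counts and on many of the called genes are therefore also given without the 173 barcodes, called free RNA barcodes below.

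**Figure D1:**
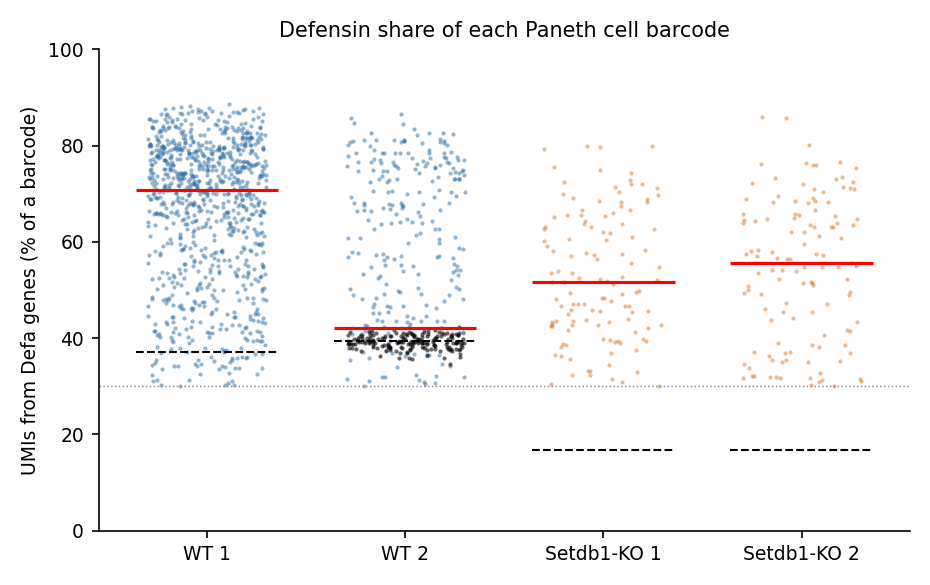
Each point is 1 Paneth cell barcode and the vertical axis gives the share of its UMIs from the Defa genes, in percent, for the 4 lineage-traced libraries (WT in blue, Setdb1-KO in orange). Black points are the 173 free RNA barcodes of the second WT library, which gather at the free RNA level (black dashed line, 39.4%). Red lines are medians (70.7%, 42.2%, 51.6% and 55.5%) and the dotted line is the 30% limit of the rule.

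The genes that set these cells off from the other barcodes within the limits were those of the Paneth granule. Lyz1, the secreted lysozyme, was at a mean of 8694 CPM over the 4 libraries in Paneth cells and at 496 CPM in the other cells, a ratio of 17.5. Itln1 (intelectin, a lectin that binds microbial sugars) had a ratio of 9.86, Ang4 (a bactericidal ribonuclease) of 7.66 and Mptx2 (a secreted pentraxin) of 7.70. The lipase gene Pnliprp2 and its cofactor colipase, Clps, had ratios of 12.3 and 8.65. Mmp7, the protease that cuts pro-cryptdins into active defensins, had a lower ratio of 4.10. Gm14851, Gm15292, Gm15293, Gm7849, Gm7861 and AY761184 stood among the 15 leading genes too, at ratios of 9.60 to 14. These ratios describe cells chosen by their defensins and are no test.

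The named markers were read in every library, and free RNA gave a measurable background. Lyz1 was also read in cells that should lack it, at 161, 703, 201 and 115 CPM in tuft-marked barcodes (15, 6, 18 and 116 barcodes), at 1412, 463, 55.1 and 71.4 CPM in enterocyte-marked barcodes (41, 25, 4 and 26) and at 754, 959.7, 397 and 303 CPM in goblet-marked barcodes (575, 288, 370 and 1223), against 9808, 6798, 9219 and 8952 CPM in Paneth cells. Barcodes were marked by at least 5 UMIs of 8 tuft genes, at least 10 UMIs of 4 goblet genes, or at least 5% of UMIs in 8 enterocyte genes. The 17 T cell genes together stayed at or below 6.04 CPM in the Paneth cells of every library, with 14, 9, 17 and 16 of them at 0. The 24 enterocyte genes together were at 2594 and 6643 CPM in WT Paneth cells (4397 in the second library without free RNA barcodes) and at 1033 and 934 CPM in Setdb1-KO. In the free RNA they were at 9187, 11623, 4179 and 3876 CPM, so the enterocyte genes in Paneth cells stood at 28.2% and 57.2% of their free RNA level in WT (37.8% in the second library without free RNA barcodes) and at 24.7% and 24.1% in Setdb1-KO. GFP itself gave 1 UMI in all 1568 barcodes.

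The promoters of the genes that name these cells are shown, with that of Slc30a2, which does not name them and is taken up below as a gene called lower. They are the 250 bases before the first start listed for each gene in RefSeq on GRCm38.p6, read 5′ to 3′ on the gene's strand, with matches in capitals. Other starts of these genes were not looked at. The motifs searched on both strands were TCAAAG, the core letters bound by the Wnt effectors TCF/LEF, and TATAAA, a core promoter box. Defa24 has no entry in the promoter table, and 4 of the 5 genes looked up matched.
Lyz1 (chr10:117292869-117293118, minus strand): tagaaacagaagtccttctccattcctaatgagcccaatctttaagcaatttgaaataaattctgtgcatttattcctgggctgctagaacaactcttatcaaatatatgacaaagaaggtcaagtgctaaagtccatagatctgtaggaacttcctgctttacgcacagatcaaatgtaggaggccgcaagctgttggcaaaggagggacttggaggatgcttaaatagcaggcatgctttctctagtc
Defa30 (chr8:21134400-21134649, plus strand): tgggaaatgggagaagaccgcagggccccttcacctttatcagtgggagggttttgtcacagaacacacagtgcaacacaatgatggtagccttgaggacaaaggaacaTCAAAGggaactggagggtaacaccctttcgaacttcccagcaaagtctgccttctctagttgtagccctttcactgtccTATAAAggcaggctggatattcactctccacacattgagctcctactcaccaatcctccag
Mptx2 (chr1:173277757-173278006, minus strand): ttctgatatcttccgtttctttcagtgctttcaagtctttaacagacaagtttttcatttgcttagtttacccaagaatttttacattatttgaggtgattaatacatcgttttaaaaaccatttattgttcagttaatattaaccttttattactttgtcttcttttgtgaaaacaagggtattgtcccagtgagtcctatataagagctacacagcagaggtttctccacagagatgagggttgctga
Slc30a2 (chr4:134343216-134343465, plus strand): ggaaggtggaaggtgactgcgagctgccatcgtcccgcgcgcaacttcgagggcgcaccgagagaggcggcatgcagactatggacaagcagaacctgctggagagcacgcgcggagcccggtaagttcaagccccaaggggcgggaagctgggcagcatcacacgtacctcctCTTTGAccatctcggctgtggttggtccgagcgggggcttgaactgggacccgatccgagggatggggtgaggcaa
Defa30 held 1 TCAAAG, starting 141 bases before the start used, and 1 TATAAA, 61 bases before it. Slc30a2 held 1 TCAAAG read on the other strand (printed as CTTTGA), 76 bases before the start used, and the Lyz1 and Mptx2 windows held neither motif. The Slc30a2 window may lie inside a longer transcript of the gene, which was not checked. Of 32851 promoter windows of this length, 13.8% held TCAAAG and 12.4% held TATAAA, so a match is common and only describes the letters.

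Among the 22 genes with a Defa symbol, 5 supplied nearly all the UMIs. Defa24 alone was 52.3% and 52.2% of the defensin UMIs in WT and 54.1% and 58.9% in Setdb1-KO. Defa30 followed with 32.1% in each WT library and 26.8% and 25.3% in Setdb1-KO. The second WT library was at 52.6% for Defa24 and at 33.2% for Defa30 without free RNA barcodes. Neither gene's WT values overlapped its Setdb1-KO values, with Defa24 higher and Defa30 lower in Setdb1-KO.

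Defa22, Defa21 and Defa29 came next, at 4.95% to 5.34%, 4.51% to 5.27% and 1.89% to 2.41% over the 4 libraries. Together the 5 genes made up 95.7% of the UMIs of genes with a Defa symbol. AY761184 and Gm14851, which lack that symbol, were at 38023 to 50871 CPM and at 33571.5 to 42611 CPM. Defa22 was at 26785.5 to 37355 CPM. Genes without a Defa symbol count as outside the defensins here, whether or not they encode defensins. Of the UMIs so counted, AY761184 took 126480 and 89152 CPM in WT and 110856 and 114951 CPM in Setdb1-KO. Gm14851 took 111672 and 97807 CPM in WT and 92855 and 86951 CPM in Setdb1-KO. Some rarer Defa genes had larger shares in Setdb1-KO. Defa36 was at 0.311% and 0.715% in WT and at 1.43% and 0.924% in Setdb1-KO. Defa34 was at 0.123% and 0.321% against 0.518% and 0.601%. In the free RNA Defa30 was at 30.0% and 27.9% of the defensin UMIs in WT and at 26.7% and 27.7% in Setdb1-KO. The Defa genes are near-identical copies, so reads can be split between them and each share is uncertain.

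**Figure D2:**
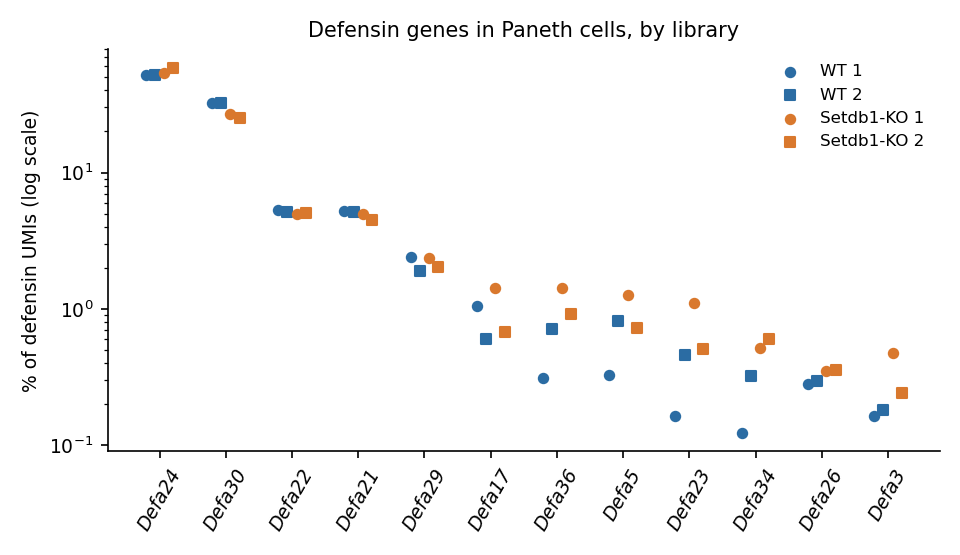
Share of the defensin UMIs of Paneth cells taken by each of the 12 most abundant Defa genes, on a log scale in percent, with 1 point per lineage-traced library (WT in blue, Setdb1-KO in orange, circles for the first and squares for the second library). Defa24 and Defa30 stand far above the rest, and Defa36 and Defa34 lie higher in both Setdb1-KO libraries than in both WT libraries.

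Paneth cells also varied within each library. The median share of UMIs taken by defensins was 70.7% and 42.2% in WT (64.1% in the second library without free RNA barcodes) and 51.6% and 55.5% in Setdb1-KO. Over 70% defensin UMIs were held by 469 of 900 and 97 of 422 barcodes in the WT libraries and by 14 of 123 and 20 of 123 in the Setdb1-KO libraries. Without free RNA barcodes the second WT library had 97 of 249. The upper UMI limit matters here. Without it, and with free RNA barcodes kept, the median defensin shares were 71.5% and 44.4% in WT and 53.6% and 64.8% in Setdb1-KO. The difference of the means then went from -2.87 to 1.29 percentage points. Genes per cell, after the thinning described next, were then 250 and 481 in WT and 420 and 295 in Setdb1-KO. With every barcode thinned to 2000 UMIs, a Paneth cell showed a median of 254.5 and 488.5 genes in WT and of 446 and 398 in Setdb1-KO. The means of 372 ± 165 and 422 ± 33.9 genes (SD, n = 2 libraries) differed by less than the spread in WT (exact two-sided permutation p = 1, smallest possible p 0.333), and without the first WT library the difference turned from 50.5 to -66.5 genes. Without free RNA barcodes the second WT library fell to 338 genes, and the Setdb1-KO libraries then lay above both WT libraries (two-sided permutation, exact p = 0.333). With 500 UMIs drawn outside the defensins instead, the medians were 217 and 264 genes in WT (244 in the second library without free RNA barcodes) and 257 and 251 in Setdb1-KO, a difference of 13.5 genes, and of 23.5 without free RNA barcodes.

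Variation between cells was measured as the median coefficient of variation over 733 genes outside the defensins and Lyz1, in barcodes thinned to 2000 UMIs. These genes had a mean of at least 0.1 UMIs, and counting noise was not removed. The value was highest in the library with the fewest genes per cell and lowest in that with the most. It therefore cannot separate variation between cells from the number of UMIs on these genes. It was 277% and 206% in WT (244% in the second library without free RNA barcodes) and 214% in each Setdb1-KO library. The difference of -27.9 percentage points was within the WT spread (exact two-sided permutation p = 1) and turned to 7.25 without the first WT library. Without free RNA barcodes it was -47.0 percentage points and the groups did not overlap (exact two-sided permutation p = 0.333). Thinning leaves fewer UMIs outside the defensins in cells rich in defensin. With 500 UMIs drawn outside the defensins instead, the groups overlapped, at 324% and 288.6% in WT and 289.2% and 284% in Setdb1-KO, and without free RNA barcodes they did not, with the second WT library at 305%.

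In each of the 4 libraries the 8 enterocyte genes used to mark barcodes took a smaller share of all UMIs in cells richer in defensin. Free RNA barcodes are left out of the values in this paragraph. In the first WT library they were at 3030 CPM in cells with 30% to 50% defensin UMIs, at 1458 CPM in those with 50% to 70%, and at 454 CPM above 70%, and in the second Setdb1-KO library at 762, 313 and 51.6 CPM. Granule genes had no single order on that scale. Over the same bands Lyz1 was at 9250, 11000.5 and 9400 CPM in the first WT library and at 8709, 10992 and 5387 CPM in the first Setdb1-KO library, where the top band held 14 cells. Spink4, a secreted peptide, took a smaller share of all UMIs in defensin-rich cells, at 23137, 16776 and 12992 CPM in the first WT library. Per UMI outside the defensins, a total that shrinks as the defensin share grows, Lyz1 went from 15826 to 29087 to 43833 CPM in the first WT library, and from 14898 to 28679 to 21049 CPM in the first Setdb1-KO library. In the second Setdb1-KO library it went from 9523 to 29110 to 33998 CPM, so the lower top band was read only in the library with 14 cells there. Mptx2 on that scale went from 1512 to 3281 to 676 CPM in the first Setdb1-KO library and from 1723 to 4070 to 5149 CPM in the second. Spink4 on that scale was higher in the top band than in the lowest in all 4 libraries, at 39584, 44359 and 60584 CPM in the first WT library. The median share of mitochondrial UMIs in the first WT library went from 1.23% to 0.495% to 0.164%. The bands are cut from the defensin share that chose the cells, so these values are a description.

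Some barcodes lay close to the limits of the rule. Those with 30% to 35% defensin UMIs numbered 27, 16, 10 and 17 in the 4 libraries, and those with 25% to 30% numbered 17, 14, 6 and 25. The former held a median of 0.549%, 0.245%, 0.420% and 0.275% Lyz1 UMIs and the latter 0.342%, 0.238%, 0.728% and 0.315%. The Lyz1 limit cut through more barcodes in the second WT library, where 55 held 5 or 6 Lyz1 UMIs and 29 held 3 or 4, than in the others, where these numbers were at most 7 and 4.

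Paneth cells made up a far smaller share of the lineage-traced barcodes in Setdb1-KO than in WT. They were 900 of 2562 barcodes within the limits in the first WT library (35.1%, exact 95% binomial interval 33.3% to 37.0%) and 422 of 985 in the second (42.8%, 39.7% to 46.0%). In the Setdb1-KO libraries they were 123 of 1207 (10.2%, 8.54% to 12.0%) and 123 of 5334 (2.31%, 1.92% to 2.75%). The means were 39.0% ± 5.45 and 6.25% ± 5.58 (SD, n = 2 libraries), a difference of -32.7 percentage points that exceeded the spread within either genotype. The groups did not overlap, and the exact two-sided permutation p of 0.333 is the smallest that 2 libraries against 2 allow.

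The direction held without the free RNA barcodes, where the WT mean was 33.2% ± 2.69 and the difference -27.0 percentage points. It held in every setting tried for the limits, with differences of -54.1 to -18.3 percentage points, and with any 1 library left out (-36.7 to -28.8). From 1000 UMIs the shares were 19.2% and 27.0% in WT and 7.53% and 2.12% in Setdb1-KO. The free RNA exceeded the 30% defensin limit in WT (37.2% and 39.4%) but not in Setdb1-KO (16.8%). Its part in the shares was not tested beyond leaving out free RNA barcodes. At a 50% limit the shares averaged 23.4% in WT and 3.33% in Setdb1-KO. Above 18000 UMIs a further 114, 50, 24 and 124 barcodes met the defensin and Lyz1 limits, and with no upper limit the shares averaged 41.4% in WT and 8.13% in Setdb1-KO. Only shares of sorted barcodes were measured, so fewer Paneth cells and more of the other cells cannot be told apart. In the Lgr5+ sort the same rule kept 42 of 4651 and 37 of 5987 WT barcodes and 17 of 2837 and 226 of 10880 Setdb1-KO barcodes, which is 0.599% to 2.08%. Above 18000 UMIs a further 92 and 118 WT and 106 and 247 Setdb1-KO barcodes of that sort met the defensin and Lyz1 limits. With no upper limit its shares were 2.69% and 2.47% in WT and 3.69% and 4.23% in Setdb1-KO.

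**Figure D3:**
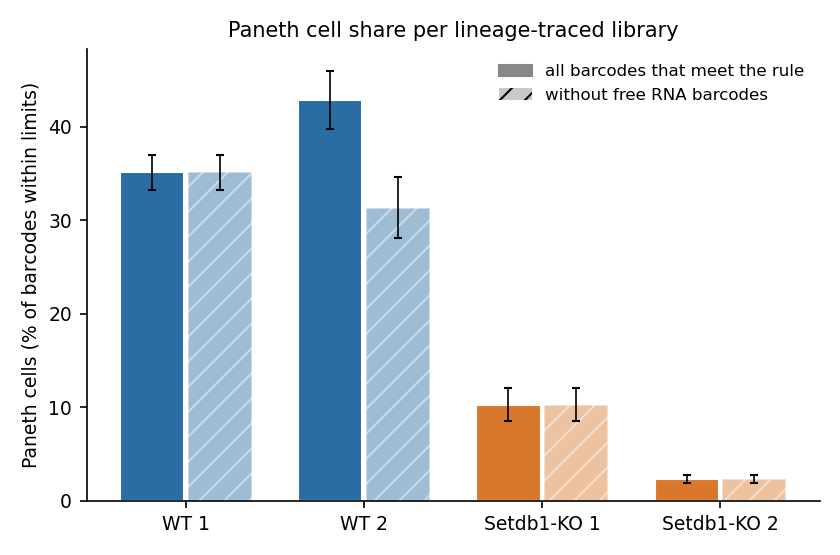
Paneth cells as a percentage of the barcodes within the limits in each lineage-traced library (WT in blue, Setdb1-KO in orange), for all barcodes that meet the rule (solid bars) and without free RNA barcodes (hatched bars). Lines on the bars are exact 95% binomial intervals, which cover counting error only. Both WT libraries stand above 30% in both settings and both Setdb1-KO libraries below 11%.

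Setdb1 itself was barely measured in these cells. It gave 28 and 5 UMIs in WT Paneth cells and 4 and 4 in Setdb1-KO, or 3.60 and 1.78 CPM against 5.62 and 4.30 CPM. The gene fell below the filter on low counts. Fitted without that filter its log2 fold change was 0.21 (standard error 0.63, edgeR adjusted p = 0.955). The assay counts the 3′ end of transcripts and the deleted exon lies outside it, so these counts do not check the genotype of the cells.

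Gene levels were compared on UMIs summed over the Paneth cells of each library. Of 5315 genes tested, 15 (0.282%) were higher and 74 (1.39%) lower in Setdb1-KO at an adjusted p under 0.05 (edgeR quasi-likelihood test, Benjamini-Hochberg adjustment). The WT and Setdb1-KO values of these 89 did not overlap, as was so for 2132 (40.1%) of all 5315 genes. An unadjusted p under 0.05 was held by 344 of the 5315 genes with edgeR and by 165 with DESeq2. Without free RNA barcodes 14 (0.331%) were higher and 79 (1.86%) lower of 4236 tested, or 2.2% in either direction, with 356 at an unadjusted p under 0.05 (edgeR). Without the first Setdb1-KO library, which leaves 1 library in that group, assumed to vary like the WT libraries, edgeR called 0 of 7282 genes in either direction, with 271 at an unadjusted p under 0.05. Without the second Setdb1-KO library 3 were higher and 31 lower, without the first WT library 12 and 130, and without the second 9 and 51. DESeq2 called 2 higher and 34 lower. The median log2 fold change over all genes was -0.01 with the scaling used (TMM) and 0.34 with no scaling factor, so a change is read relative to that median.

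Of the Paneth antimicrobial and secretory products, most did not pass the test. Of the 32 genes on the list 24 were testable, and Lyz1, which the rule used, is left out of the counts. Of the other 23 genes 3 were lower (Slc30a2, Reg3b and Reg3g) and 0 higher, with 4 at an unadjusted p under 0.05. DESeq2 called 2 lower and 0 higher. Leaving out free RNA barcodes gave 5 lower and 0 higher, 8 at an unadjusted p under 0.05 and a median of -0.44. The list's median log2 fold change was -0.31 beside -0.01 over all genes, with 21 of 23 values negative, and with no scaling factor its median was 0.048 with 10 of 23 negative and 0 called.

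Mptx2, whose product is secreted from the granules, was at 3074 and 1953 CPM in the WT libraries and at 946 and 1342 CPM in the Setdb1-KO libraries. Every Setdb1-KO value lay below every WT value, yet the log2 fold change of -1.54 (standard error 0.48) did not pass the test (edgeR adjusted p = 0.0723). Without free RNA barcodes the value was -1.64 and passed (edgeR adjusted p = 8.05e-06). Over 21 alternatives the log2 fold change ran from -2.06 to -0.87, and 7 of them passed. Mptx2 in the free RNA was at 2894, 1883, 637 and 498 CPM, so it too was lower in Setdb1-KO there. With the free RNA subtracted the log2 fold change was -1.67, no smaller than before, and the edgeR adjusted p was 0.921. Per UMI outside the defensins Mptx2 stood at 10225 and 4510 CPM in WT (5642 in the second library without free RNA barcodes) and at 2061 and 3261 CPM in Setdb1-KO.

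Slc30a2, the zinc transporter that loads Paneth granules, was the 1 gene of the 74 called lower whose WT level in Paneth cells exceeded that in the free RNA. It gave 147 and 43 UMIs in WT and 2 and 6 in Setdb1-KO, or 18.9 and 15.3 CPM against 2.81 and 6.45 CPM. The log2 fold change was -2.22 (standard error 0.56, edgeR adjusted p = 0.00575), and -2.43 without free RNA barcodes (edgeR adjusted p = 0.00015). The call was lost in 6 of 21 alternatives, among them DESeq2 (adjusted p = 0.25), no scaling factor (edgeR adjusted p = 0.291), subtraction of the free RNA (log2 fold change -2.59, edgeR adjusted p = 0.496) and fits without the first WT library or without either Setdb1-KO library (edgeR adjusted p = 0.158, 0.999 and 0.114). Free RNA held Slc30a2 at 6.29, 6.19, 1.37 and 0.419 CPM. In Lgr5+ sort Paneth cells the gene was at 34.2, 30.1, 33.7 and 14.3 CPM, where the genotypes overlapped.

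The antibacterial lectins Reg3b and Reg3g fell in Setdb1-KO. Reg3b was at 303 and 1016 CPM in WT and at 107 and 88.1 CPM in Setdb1-KO (log2 fold change -3.00, edgeR adjusted p = 5.19e-08). Reg3g was at 945 and 1731 CPM in WT and at 277 and 334 CPM in Setdb1-KO (log2 fold change -2.42, edgeR adjusted p = 4.59e-05). Enterocytes express both genes too, Reg3g is also on the enterocyte list used here, and the WT Paneth cells stood at 0.431 times the free RNA level for Reg3b and at 0.732 times for Reg3g. Neither passed without the first Setdb1-KO library (edgeR adjusted p = 0.999 for both), without the second (edgeR adjusted p = 0.386 and 0.586), with no scaling factor (edgeR adjusted p = 0.0639 and 0.18) or with the free RNA subtracted (log2 fold changes -5.50 and -2.58, edgeR adjusted p = 0.0518 and 0.398). Reg3g also did not pass with no upper UMI and gene limit. Both passed without free RNA barcodes, at -2.71 and -2.36 (edgeR adjusted p = 3.54e-14 and 1.52e-11).

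The other abundant products showed smaller differences that did not pass the test. Itln1 was at 11093 and 7233 CPM in WT and at 9707 and 10193 CPM in Setdb1-KO, so the groups overlapped (log2 fold change -0.30, and 0.12 with no scaling factor). Ang4 was at 2359 and 1872 CPM against 1962 and 2076 CPM, again with overlap (log2 fold change -0.47). Spink4, a secreted trypsin inhibitor shared with goblet cells, had a log2 fold change of -0.14 (0.23 with no scaling factor). Mmp7 had -0.12 (0.31 with no scaling factor). Pnliprp2 had -0.81 (edgeR adjusted p = 0.807), and -0.99 without free RNA barcodes, where it passed (edgeR adjusted p = 0.020).

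**Figure D4:**
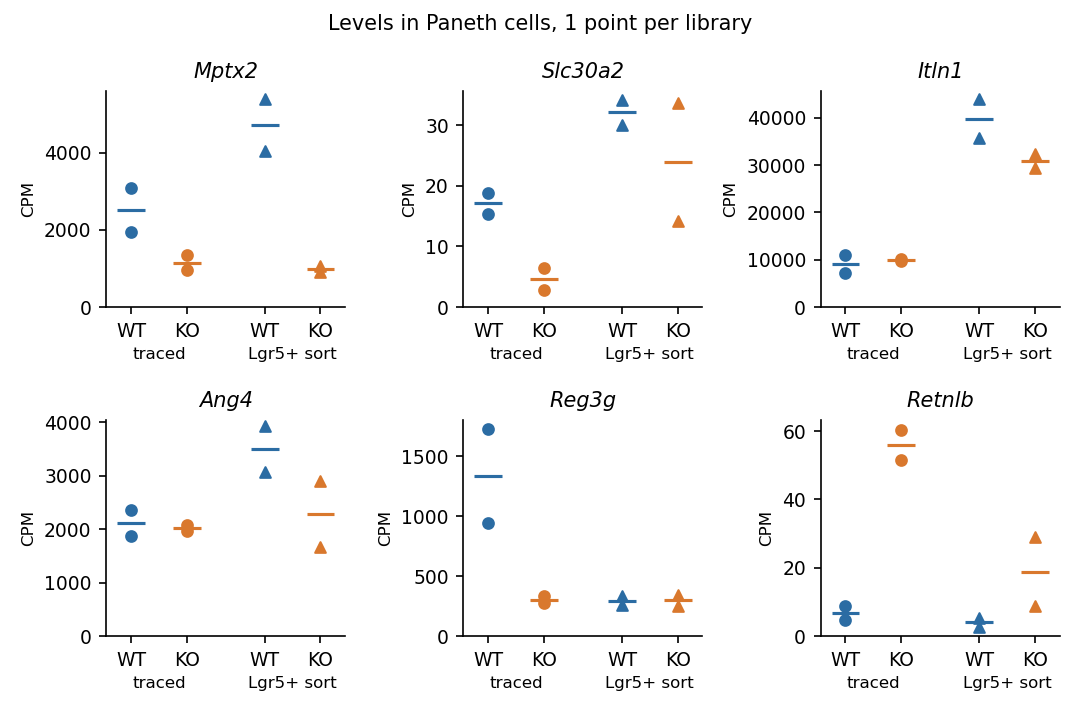
Levels of 6 genes in Paneth cells, in CPM from 0, with 1 point per library and a line at the mean of each group (WT in blue, Setdb1-KO in orange, circles for the lineage-traced libraries and triangles for the Lgr5+ sort). Mptx2 is lower in Setdb1-KO than in WT in both sorts, with no overlap, and Itln1 and Ang4 overlap between the lineage-traced genotypes.

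Genes for the stem cell niche, for the secretory fate and for protein export gave no calls. Of 20 niche signal genes 7 were testable, with a median log2 fold change of 0.16, and none passed at an adjusted or an unadjusted p under 0.05 with edgeR or DESeq2. Wnt3, the Wnt ligand of the niche, was at 9.12 and 4.62 CPM in WT and at 9.84 and 9.67 CPM in Setdb1-KO. Dll1, a Notch ligand, was at 6.17 and 4.97 CPM against 11.2 and 11.8 CPM (log2 fold change 0.60, edgeR adjusted p = 0.999). These levels rest on few UMIs, and small differences were not detectable at this depth.

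Of 21 secretory transcription factors 16 were testable, again with 0 called and 0 at an unadjusted p under 0.05 by edgeR or DESeq2 (median 0.02). Sox9, needed for Paneth cell formation, was at 73.2 and 61.1 CPM in WT and at 138 and 84.9 CPM in Setdb1-KO (log2 fold change 0.30, and -0.10 with the free RNA subtracted). Xbp1, which drives the unfolded protein response, was at 39.6 and 32.3 CPM against 28.1 and 46.2 CPM (log2 fold change -0.33, and 0.057 with no scaling factor). Of 40 genes of the endoplasmic reticulum and secretory pathway 36 were testable, with 0 called, 0 at an unadjusted p under 0.05 and a median of 0.10. Hsp90b1, a chaperone of that compartment, was at 72.7 and 71.7 CPM in WT and at 157 and 128 CPM in Setdb1-KO (log2 fold change 0.59, edgeR adjusted p = 0.999).

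Among the genes of antigen presentation 2 were lower. Of 7 MHC class II genes 4 were testable and 1 was called, against 3 without free RNA barcodes, and 0 with DESeq2 or with no scaling factor. All 4 had negative values with an unadjusted p under 0.05, and the median was -1.45. H2-Aa, a class II chain, was called, at 22.1 and 40.5 CPM in WT and at 9.84 and 15.0 CPM in Setdb1-KO (log2 fold change -1.58, edgeR adjusted p = 0.0419). That call was lost in 13 of 21 alternatives and held without free RNA barcodes (log2 fold change -1.40, edgeR adjusted p = 0.0247). Cd74, the invariant chain, was at 100.4 and 250.4 CPM against 71.7 and 102 CPM (log2 fold change -1.26, edgeR adjusted p = 0.135), and passed without free RNA barcodes (log2 fold change -1.17, edgeR adjusted p = 0.00589). Of 17 MHC class I genes 11 were testable and H2-Q2 was lower (log2 fold change -2.40, edgeR adjusted p = 0.0017), which did not pass with DESeq2 (adjusted p = 0.081), with no scaling factor (edgeR adjusted p = 0.169) or without the first or the second Setdb1-KO library (edgeR adjusted p = 0.999 and 0.197). H2-Q2 passed without free RNA barcodes (log2 fold change -2.20, edgeR adjusted p = 0.00115). In the free RNA the class II genes had a median of -0.70. With the free RNA subtracted H2-Aa was at -0.88 and Cd74 at -1.15, and neither passed (edgeR adjusted p = 0.955 and 0.921).

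Metallothionein Mt2, which binds zinc, was lower (log2 fold change -2.55, edgeR adjusted p = 5.60e-06), from 67.3 and 97.7 CPM in WT to 14.1 and 20.4 CPM in Setdb1-KO. It passed without free RNA barcodes (log2 fold change -2.38, edgeR adjusted p = 7.66e-08). The call was lost in 4 of 21 alternatives, namely without the first or the second Setdb1-KO library (edgeR adjusted p = 0.999 and 0.114), with no scaling factor (log2 fold change -2.24, edgeR adjusted p = 0.0875) and with the free RNA subtracted (log2 fold change -2.93, edgeR adjusted p = 0.921). Mt1 was at 155 and 317 CPM against 129 and 163 CPM and did not pass. Of 12 zinc genes 9 were testable and 2 were lower (Mt2 and Slc30a2). The lists for autophagy (12 testable), interferon and innate sensing (8), necroptosis (8), p53 targets (8) and H3K9 methylation (10) had 0 called genes and 0 at an unadjusted p under 0.05 with edgeR and with DESeq2. Stem cell (14 testable) and dividing cell genes (14) had 0 called by either tool, with 1 each at an unadjusted p under 0.05 by edgeR. Of 12 testable immediate early and heat shock genes 0 were called, with 1 at an unadjusted p under 0.05 by edgeR and 0 called by DESeq2.

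Many of the largest differences were in genes of absorptive enterocytes, and 17 of the 74 genes called lower were on the enterocyte lists used here. Of 24 enterocyte marker genes 21 were testable, 17 were lower in Setdb1-KO, all 21 had negative values and the median was -2.62. DESeq2 called 14 of the 21, and 10 passed with no scaling factor, where all 21 were again negative. The count was also 17 of 21 without free RNA barcodes, with a median of -2.67. S100g, which carries calcium in the enterocyte, was at 94.7 and 211 CPM in WT and at 2.81 and 3.22 CPM in Setdb1-KO (log2 fold change -5.90, standard error 0.61, edgeR adjusted p = 5.76e-18). Fabp6, the ileal bile acid carrier, was at 126 and 666 CPM against 11.2 and 21.5 CPM (log2 fold change -4.74). The apolipoprotein genes Apoa1, Apoa4 and Apoc3 had log2 fold changes of -4.74, -4.90 and -4.64, Rbp2 (retinol carriage) -3.28, Gsta1 -3.89 and the carbonic anhydrase gene Car1 -5.01. Cyp3a11, a drug-metabolising enzyme, had -7.12. Ada, adenosine deaminase, had 0 UMIs in both Setdb1-KO libraries and was at least 13.8-fold lower than in WT, with a floor of 3 counts over the group.

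The same genes were lower outside the Paneth cells. Of the 74 genes called lower, 73 were lower in the free RNA of both Setdb1-KO libraries than of both WT libraries, a pattern held by 291 of the 5315 genes tested (5.48%). In the other cells within the limits 73 had both Setdb1-KO values below both WT values, as had 889 of the 5315 (16.7%). Their median log2 fold change was -3.30 in Paneth cells, -1.87 in the free RNA and -2.86 in the other cells, and their WT Paneth cell level was at a median of 0.391 times the free RNA level. With the free RNA subtracted, 18 of the 74 could still be tested, 16 kept a negative value and 12 had an unadjusted p under 0.05 (edgeR). In that fit edgeR called 0 of 2899 genes, with 131 at an unadjusted p under 0.05. The part of free RNA in these calls was not tested beyond this subtraction.

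Of the 15 genes called higher, 13 were higher in the free RNA of both Setdb1-KO libraries (3202 of 5315 genes tested, 60.2%, had that pattern) and 13 in the other cells (1082 of 5315, 20.4%). With the free RNA subtracted, 3 of the 15 could still be tested. All 3 kept a positive value with an unadjusted p under 0.05 (edgeR), and 0 passed after adjustment. Retnlb, a secreted goblet cell protein that acts on Gram-negative bacteria, was at 4.63 and 8.88 CPM in WT and at 60.4 and 51.6 CPM in Setdb1-KO (log2 fold change 2.77, standard error 0.43, edgeR adjusted p = 5.17e-08). It was at 24.4, 17.4, 83.3 and 92.6 CPM in the free RNA, above its level in Paneth cells in every library. Without free RNA barcodes the Retnlb log2 fold change was 2.85 (edgeR adjusted p = 7.54e-11), and with the free RNA subtracted 9.20 (edgeR adjusted p = 0.0518). The 16 goblet genes together overlapped between the genotypes, at 18437 and 20155 CPM in WT and at 19773 and 24472 CPM in Setdb1-KO. The second WT library stood at 16869 CPM without free RNA barcodes, and both WT values then lay below both Setdb1-KO values. Retnlb was the 1 gene called of the 16, and 11 had negative log2 fold changes (median -0.09, and 0.23 with 6 negative with no scaling factor). The abundant goblet genes Zg16, Clca1 and Muc2 had -0.74, -0.55 and -0.49 and did not pass. The part of goblet RNA in the Retnlb call was not tested.

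Eif3j2, a translation initiation factor gene copy, was at 1.67 and 0.355 CPM in WT and at 21.1 and 21.5 CPM in Setdb1-KO (log2 fold change 3.58, standard error 0.51, edgeR adjusted p = 1.70e-09). It rested on 13 and 1 UMIs against 15 and 20, was at 50.4 and 34.6 CPM in the other Setdb1-KO cells against 5.18 and 4.52 CPM in the other WT cells, and its reads may be shared with a near-identical copy. Without free RNA barcodes the Eif3j2 log2 fold change was 3.35 (edgeR adjusted p = 1.15e-08), and with the free RNA subtracted 3.50 (edgeR adjusted p = 0.756). Kctd12 had a log2 fold change of 2.14, Ggcx, the vitamin K-dependent carboxylase, 2.66, and the tuft cell gene Rgs13 2.68. The 16 tuft genes together were at 166 and 140 CPM in WT Paneth cells and at 268 CPM in each Setdb1-KO library, beside 192, 136, 270.0 and 229 CPM in the free RNA. Their part in the Rgs13 call was not tested. Rgs13 was not testable without free RNA barcodes, where the second WT library went from 1.42 to 0.509 CPM. The Ggcx, Kctd12 and Rgs13 calls were not made by DESeq2, which called Eif3j2 and Retnlb as the 2 higher genes. Ghrl and Gcg, hormones of enteroendocrine cells, had log2 fold changes of 2.02 (edgeR adjusted p = 0.0371) and -2.71 (edgeR adjusted p = 0.00421). The Ghrl call was lost in 10 of 12 alternatives and the Gcg call in 4 of 16, among them for both DESeq2 (adjusted p = 0.9995 and 0.315), no scaling factor (edgeR adjusted p = 0.279 and 0.18) and fits without either Setdb1-KO library. Leaving out free RNA barcodes took the second WT library from 3.20 to 0 CPM for Ghrl and from 9.24 to 3.57 CPM for Gcg, and neither was testable.

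Of the 15 genes 3 had a mean level in WT Paneth cells above that in the WT free RNA, among them Ttc28 and Gm42031. Ttc28 was at 1.41 and 0.71 CPM in WT against 9.84 and 6.45 CPM in Setdb1-KO (log2 fold change 2.25). It rested on 11 and 2 UMIs against 7 and 6, and was not testable without free RNA barcodes. Gm42031 was at 1.80 and 1.07 CPM against 12.6 and 7.52 CPM (log2 fold change 2.17) and rested on 14 and 3 UMIs against 9 and 7. In the free RNA Gm42031 was at 1.31 CPM in each WT library and at 20.9 and 28.5 CPM in Setdb1-KO. Its Setdb1-KO Paneth cell level thus lay below the free RNA level.

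**Figure D5:**
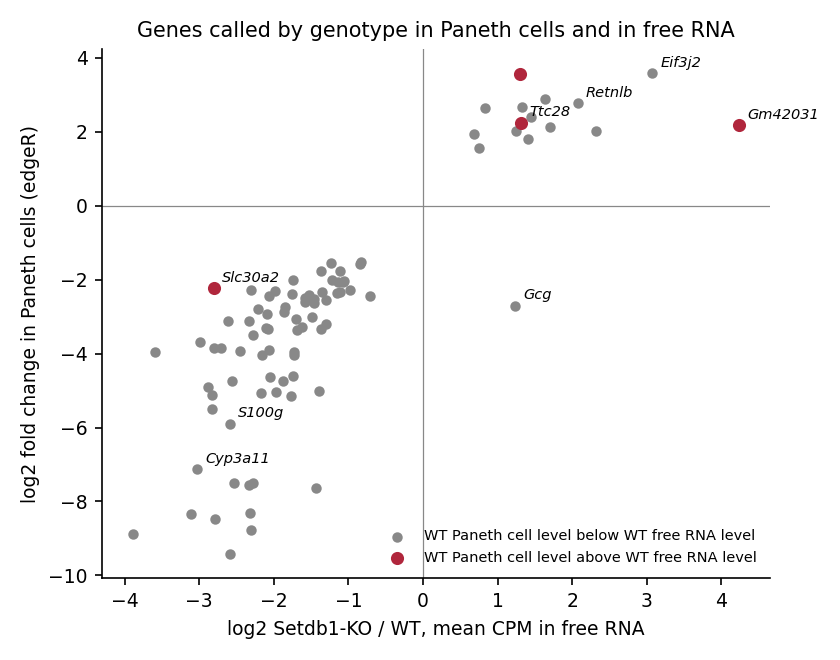
Each point is 1 of the 89 genes called between genotypes in lineage-traced Paneth cells, with its log2 ratio of Setdb1-KO over WT in the free RNA on the horizontal axis and its log2 fold change in Paneth cells (edgeR) on the vertical axis. Red points are the 4 genes whose WT Paneth cell level exceeds the WT free RNA level, among them Slc30a2, Ttc28 and Gm42031. Nearly all points lie in the lower left or the upper right, and Gcg lies apart.

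Paneth cells were then compared between the lineage-traced and the Lgr5+ libraries, in which the sort, the reporter allele and the run cannot be told apart. In each Lgr5+ library more barcodes met the defensin and Lyz1 limits above 18000 UMIs than within the limits. The Lgr5+ values thus rest on the smaller number. Of 3168 genes tested, 552 (17.4%) were higher and 443 (14%) lower in the lineage-traced cells, and without the first lineage-traced Setdb1-KO library 288 were lower. Without free RNA barcodes 625 (19.8%) were higher and 522 (16.6%) lower of 3153. The Paneth product list without Lyz1 had 4 genes higher and 8 lower of 23, with a median log2 difference of -0.63 beside 0.03 over all genes. Lyz1, which the rule used, was at 6798 to 9808 CPM in the lineage-traced libraries and at 26728 to 43635 CPM in the Lgr5+ sort. Itln1 was lower by the test, at 7233 to 11093 CPM against 29357 to 43955 CPM (log2 difference -1.60, edgeR adjusted p = 0.000589). Reg4, a secreted lectin, was at 143 to 295 CPM against 1090 to 2399 CPM (log2 difference -2.56, edgeR adjusted p = 1.05e-07). Wnt3 was at 4.62 to 9.84 CPM against 31.1 to 70.9 CPM (log2 difference -2.34). The Mptx2 values overlapped, at 946 to 3074 CPM against 906 to 5382 CPM.

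The secretory pathway had 17 of 34 genes lower and 2 higher (median -0.75), and the immediate early and heat shock genes 11 of 14 lower and 0 higher (median -1.36). Jun and Jund, members of that second list, had log2 differences of -2.43 and -2.31, and the vesicle transport gene Tmed3 and the ion pump regulator Fxyd3 had -2.31 and -2.45. Enterocyte genes were higher for 7 of 11 (median 1.64) and genes of dividing cells for 6 of 10 (median 1.36). Abhd2, Nmt1, Ndufa3, Rpgrip1 and Gsta1 led the higher genes with log2 differences of 3.51, 3.33, 2.86, 5.24 and 4.75. The free RNA held 16.8% to 39.4% defensin in the lineage-traced libraries and 4.07% to 8.42% in the Lgr5+ libraries. Its part in these differences was not tested.

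The genotype effect was compared between the sorts by an interaction term. Of 3916 genes tested edgeR called 0 higher and 23 (0.587%) lower, with 88 higher and 162 lower at an unadjusted p under 0.05, and without free RNA barcodes 0 and 16. DESeq2 called 0 higher and 9 lower. The number lower was 10 without the first Lgr5+ WT library, 45 and 8 without the first and second Lgr5+ Setdb1-KO library, 43 and 15 without the first and second lineage-traced WT library and 12 without the second lineage-traced Setdb1-KO library. Of 20 testable enterocyte genes 8 were among the 23. Rbp2 was at 254, 682, 53.4 and 61.2 CPM in lineage-traced Paneth cells and at 10.5, 16.4, 77.1 and 108 CPM in Lgr5+ Paneth cells, so the order of the genotypes was opposite (log2 difference of the effects -6.29, edgeR adjusted p = 7.20e-12). The 8 enterocyte genes used to mark barcodes took 0.206%, 0.258%, 0.617% and 0.311% of the free RNA in the Lgr5+ libraries (same order). In the lineage-traced libraries they took 0.540%, 0.644%, 0.244% and 0.233%. The part of free RNA in these differences was not tested.

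For Mptx2 no difference between the sorts was called. In Lgr5+ Paneth cells it was at 4043 and 5382 CPM in WT and at 906 and 1053 CPM in Setdb1-KO, lower in both Setdb1-KO libraries as in the lineage-traced cells. The log2 difference of the effects was 0.59 (standard error 0.67, edgeR adjusted p = 0.998), which does not show that the effects were equal. The Lgr5+ values rest on 42, 37, 17 and 226 cells.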

How the data were processed

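Single-cell RNA-seq of GFP+ ileal crypt cells was analysed (10x Genomics 3′ assay), 4 lineage-traced and 4 Lgr5+ libraries. The authors counted UMIs with Cell Ranger (version 6.1.1 and mm10 in the submitters' processing notes) and deposited the raw UMI counts of every gene feature in every barcode, without normalization or filtering of cells. Here the counts were read as deposited over 32286 features, GFP included. The members, lists and named genes were chosen with earlier results of these data known.

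Free RNA is the sum of barcodes with 1 to 100 UMIs. A free RNA barcode is one whose counts over the 300 most abundant free RNA genes deviate from that profile by a mean squared standardised deviation under 2. Doublets were marked per library with a rebuilt DoubletFinder procedure (pN 0.25, pK 0.09, 10 components, 0.8% per 1000 barcodes), which marked 42, 0, 0 and 0 lineage-traced Paneth cells. These were kept in the values shown and removed as an alternative.

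UMIs were summed per library and tested with edgeR 4.0.16 (R 4.3.3, filterByExpr, TMM, quasi-likelihood F test, Benjamini-Hochberg adjustment at 0.05). Genotype was the only term within the lineage-traced libraries. Over all 8 libraries the sorts were compared with genotype and sort as terms, and the genotype effects with their interaction added. DESeq2 1.42.0 was an alternative. CPM are the UMIs of a gene scaled to the summed UMIs of the Paneth cells of a library, without TMM. Single values per library were compared by an exact permutation test, two-sided, with 6 ways to divide the 4 libraries. Libraries are the replicates. The labels do not say that they came from separate mice, so p-values measure at most the spread between libraries. In the gene tests edgeR shares that spread among genes, so a p-value does not measure the spread of its own gene alone. Reg3b, at 303 and 1016 CPM in the WT libraries, had an edgeR adjusted p of 5.19e-08. The gene p-values from 2 libraries per genotype rest on this sharing. Intervals and floors cover counting error only. Genes were named by a fixed rule (the cell markers, the most abundant testable genes of 3 Paneth lists, at most 3 of each other list by p, the 10 smallest adjusted p in each direction, and 5 in each direction for the other tests), and Clps, Mmp7, Reg3b, Reg3g and further called genes outside it were chosen after their values were seen. In counts simulated for the genotype comparison (5315 genes), 84 of 100 genes changed by a log2 of 2 and 10 of 100 changed by a log2 of 1 were called, with 10 unchanged genes called. The changed genes were drawn only from those above the median abundance, so these rates do not cover rarer genes. Other steps ran in Python 3.11.15 with pandas 2.3.3, scipy 1.17.1 and numpy 2.4.6. The total RNA-seq, scATAC-seq and CUT&Tag samples were not used here, and some called genes are not reported here.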

Additional observations from a re-analysis of the deposited data

Results flagged for a closer look

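The genotype effect differed between the lineage-traced and the Lgr5+ Paneth cells by an interaction test for 23 genes, all lower in the lineage-traced cells. The part of free RNA in these differences was not tested. The log2 differences of the effects were -6.29 for Rbp2, -12.22 for S100g, -6.46 for Fabp6, -11.24 for Apoc3 and -5.54 for Gip, a hormone gene of enteroendocrine cells. S100g and Apoc3 had 0 UMIs in both Lgr5+ WT libraries, so the sizes of their fitted differences depend on the prior count. Fabp6 was at 126, 666, 11.2 and 21.5 CPM in the lineage-traced Paneth cells (WT 1, WT 2, Setdb1-KO 1, Setdb1-KO 2) and at 5.25, 5.47, 19.3 and 14.3 CPM in the Lgr5+ ones. Gip was at 218 CPM in the second Lgr5+ Setdb1-KO library and at 14.5 CPM or less in the other 7. Without that library the S100g, Apoc3 and Gip calls were lost.

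Barcodes above the upper limit of 18000 UMIs were not counted as Paneth cells, yet 114 and 50 of them met the defensin and Lyz1 limits in WT and 24 and 124 in Setdb1-KO. In the second Setdb1-KO library they outnumbered the 123 Paneth cells within the limits. In each Lgr5+ library such barcodes also outnumbered the Paneth cells within the limits.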

How the results depend on the processing

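The lower share of Paneth cells in Setdb1-KO kept its direction in every setting tried. The difference in genes per cell was -8 with no upper UMI and gene limit and ran from -66.5 to 167.5 with 1 library left out, and that in variation between cells ran from -63.1 to 7.25. Genes higher in Setdb1-KO numbered 2 with DESeq2, 7 without Defa genes and Lyz1 in the fit, 0 with free RNA subtracted, 6 at a Lyz1 limit of 10 UMIs, 4 at a UMI limit of 4000 and 0 to 12 with 1 library left out. Genes lower numbered 34 with DESeq2, 0 with free RNA subtracted, 32 with no scaling factor, 137 with no upper limit and 0 to 130 with 1 library left out. Differences of the genotype effect between the sorts numbered 5 higher and 78 lower with no upper limit, 9 lower with DESeq2, and 0 to 4 higher and 8 to 45 lower with 1 library left out. Between the sorts themselves 1428 genes were higher and 1542 lower with no upper limit, 256 lower with no filter on low counts, 196 lower in WT alone, and 288 to 465 lower with 1 library left out. For Setdb1 the log2 ratio of the mean CPM was 0.88, against fitted values of 0.21 with no filter on low counts, 0.17 with no upper limit, and 0.21 to 0.34 with 1 library left out. Genes that passed in no direction changed sign with no scaling factor (Itln1 0.12, Spink4 0.23, Mmp7 0.31, Xbp1 0.057), with no upper limit (Itln1 0.15, Ang4 0.14, Mmp7 0.13, Dll1 -0.18), with free RNA subtracted (Sox9 -0.10) and at a defensin limit of 50% (Sox9 -0.058). With 1 library left out the log2 fold changes ran from -0.81 to 0.34 for Itln1, -0.58 to 0.21 for Spink4, -0.60 to 0.48 for Mmp7, -0.082 to 0.71 for Sox9 and -0.89 to 0.12 for Xbp1. The causes were not tested. In a fit with the replicate number as a replicate block, 16 genes were higher and 90 lower in Setdb1-KO and 13 genotype effects were lower in the lineage-traced cells. H2-Ab1 and Cd74 gained and Ghrl lost the call. Same-numbered libraries deviated together with a correlation of 0.0856 over 5315 genes. With 2 libraries per genotype this rests on 1 deviation per genotype, so it cannot show whether the numbers pair them. Settings on free RNA barcodes, on the upper limits and on the 50% defensin limit were chosen after the data were seen. The 123 Paneth cells of each Setdb1-KO library limit what can be detected for genes of a few CPM.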
